A study of Homo sapiens with 9 samples.

Results

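Glycolysis and hypoxia response genes were followed in U251, an established human cell line grown from a malignant glioma, after knockdown of the transcription factor WT1 by small interfering RNA (siRNA). The set held 35 genes, listed by name: glucose transporters, glycolytic enzymes, kinases and enzymes at the fate of pyruvate, the alpha subunits of the hypoxia-inducible factor (HIF), and genes known to respond to HIF. Of these, 33 had at least 1 Affymetrix probe set that names no other gene, out of 11963 genes in all, and SLC16A3 and CA9 were not analysed here. The 33 genes had 60 such probe sets (18 genes had 1 and 15 had several), and each gene was read at its brightest probe set by mean level on the 9 arrays.

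Of the 3 groups, the first received the reagent Oligofectamine with an siRNA to WT1, the second Oligofectamine with a non-targeting scrambled siRNA, and the third Oligofectamine alone, called reagent below. Both siRNAs were given at 100 nM, and the cells, labelled U251MG, carried no other treatment in the labels. Each group had 3 cultures, with replicate numbers 1, 2 and 3 in the sample titles. The labels call them biological triplicates plated in wells, and nothing further says what a replicate number stands for. The p-values measure the spread between these cultures that is left once differences between replicate numbers are taken out. Levels are log2 values, where 1 unit is a 2-fold step, and differences are fitted in limma with the replicate number as a block, so that cultures are compared within a number (n = 3 per group). A gene passed where its p, adjusted over all 22215 probe sets, was under 0.05. The targeted gene itself was read first. WT1 lay at log2 4.76, 5.09 and 4.82 with its siRNA, against 5.59, 5.89 and 5.41 with the scrambled siRNA and 6.05, 6.58 and 5.89 with reagent. It fell against both, by differences of -0.74 (limma adjusted p = 0.00336) and -1.29 (adjusted p = 0.000619), and the WT1 siRNA arrays lay below all others. In WT1 all scrambled siRNA arrays were also below all reagent arrays, narrowly at the closest (5.890 against 5.894). Within numbers the scrambled siRNA differed from reagent by -0.47, -0.69 and -0.49 (mean -0.55, adjusted p = 0.0164). A second, dimmer WT1 probe set differed by -0.18 and -0.15 with its siRNA, overlapped both controls and did not pass (adjusted p = 0.42 and 0.516). Between the controls it differed by 0.03, with overlap (adjusted p = 0.959).

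HIF is a transcription factor made of an oxygen-regulated alpha subunit and a constant beta subunit. With oxygen present, prolyl hydroxylases such as EGLN1 mark the alpha subunits HIF1A and EPAS1 for destruction. When oxygen is low the alpha subunits persist and switch on genes of glucose uptake, glycolysis, lactate production, blood vessel growth and pH control. Gliomas are known for hypoxic zones and for making lactate from glucose even where oxygen is present. The arrays measured transcripts, and neither oxygen, HIF protein nor metabolic flux was measured.

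EPAS1 and PDK1 were the member genes that passed the test in a comparison with the WT1 siRNA, and their promoters are shown for that reason. In each, the capitals mark the core letters bound by HIF, ACGTG or GCGTG, read on both strands. The sequences are from RefSeq (GRCh38.p14) and span 300 bases around the annotated start, most of them before it, on the plus strand, at chr2:46297157-46297456 for EPAS1 and at chr2:172555840-172556139 for PDK1.
EPAS1: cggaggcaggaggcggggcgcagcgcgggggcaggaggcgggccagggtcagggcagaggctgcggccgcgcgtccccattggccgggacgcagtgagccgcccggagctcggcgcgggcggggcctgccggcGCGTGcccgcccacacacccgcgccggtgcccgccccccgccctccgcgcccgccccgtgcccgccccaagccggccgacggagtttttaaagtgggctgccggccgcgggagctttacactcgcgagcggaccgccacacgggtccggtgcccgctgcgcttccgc
PDK1: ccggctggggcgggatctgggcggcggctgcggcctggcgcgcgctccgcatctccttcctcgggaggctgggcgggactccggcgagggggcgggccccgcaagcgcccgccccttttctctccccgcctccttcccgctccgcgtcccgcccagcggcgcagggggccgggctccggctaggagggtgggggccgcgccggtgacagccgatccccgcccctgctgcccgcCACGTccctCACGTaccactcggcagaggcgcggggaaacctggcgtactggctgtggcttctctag
The EPAS1 window held 1 core, GCGTG, whose first base lies at -117 from the start. The PDK1 window held 2, both ACGTG on the minus strand and so printed as CACGT, at -17 and -8, and a second annotated PDK1 start had none. Promoter windows were found for 30 of the 33 genes, in 56 windows, and not for SLC2A3, STC1 and NDRG1. A HIF core stood in 39 of these 56 windows (69.6%), against 48.4% of all 35116 windows in the table and 54.7% of those of protein-coding genes. The WT1-type letters GCGTGGGCG or GCGGGGGCG, on either strand, stood in 2 of the 56 windows (3.57%). The shares were 5.77% of all windows and 7.42% of those of protein-coding genes. Some genes have several windows. Counted by gene, the letters stood in 2 of 30 members (6.67%), against 6.95% of all genes and 9.71% of protein-coding genes. A match describes letters in the window, not binding.

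EPAS1 fell with the WT1 siRNA against both controls, while HIF1A, the other alpha subunit, passed in neither comparison. EPAS1 encodes the HIF alpha subunit best known from endothelium and from kidney cancer. It had log2 levels of 6.88, 7.95 and 6.81 with the WT1 siRNA, against 7.74, 8.83 and 7.72 with the scrambled siRNA and 7.39, 8.61 and 7.47 with reagent, in the order of replicate numbers 1, 2 and 3. The groups overlapped, because all 3 cultures numbered 2 were high, but within each number the culture with the WT1 siRNA was the lowest of the 3.

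Against the scrambled siRNA the EPAS1 differences were -0.87, -0.88 and -0.91 in the 3 numbers, with a fitted mean of -0.88 (SE 0.059), a level of 54.2% of that with the scrambled siRNA. In limma with the replicate number as a block the adjusted p was 0.000503. Against reagent the differences were -0.51, -0.66 and -0.66, with a fitted mean of -0.61 and an adjusted p of 0.00558 in the same limma fit, a level of 65.5%. Ordered by size of fall, EPAS1 stood at rank 11 of the 11963 genes against the scrambled siRNA and at rank 25 against reagent. Between the 2 controls EPAS1 was higher with the scrambled siRNA by 0.36, 0.22 and 0.24, which did not pass (mean 0.28, limma adjusted p = 0.0674).

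EPAS1 rests on 1 probe set and on the comparison within numbers. A second, dimmer EPAS1 probe set, with a mean of 4.70 over all arrays, differed by -0.06 against the scrambled siRNA and -0.12 against reagent and did not pass. Without the block the limma SE was 0.449 and the adjusted p 1.00 in both comparisons, and without the 3 arrays numbered 2 the differences of -0.89 and -0.59 had adjusted p = 0.0557 and 0.206. The call against reagent was also lost without reagent culture 2 (adjusted p = 0.0721).

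**Figure D1:**
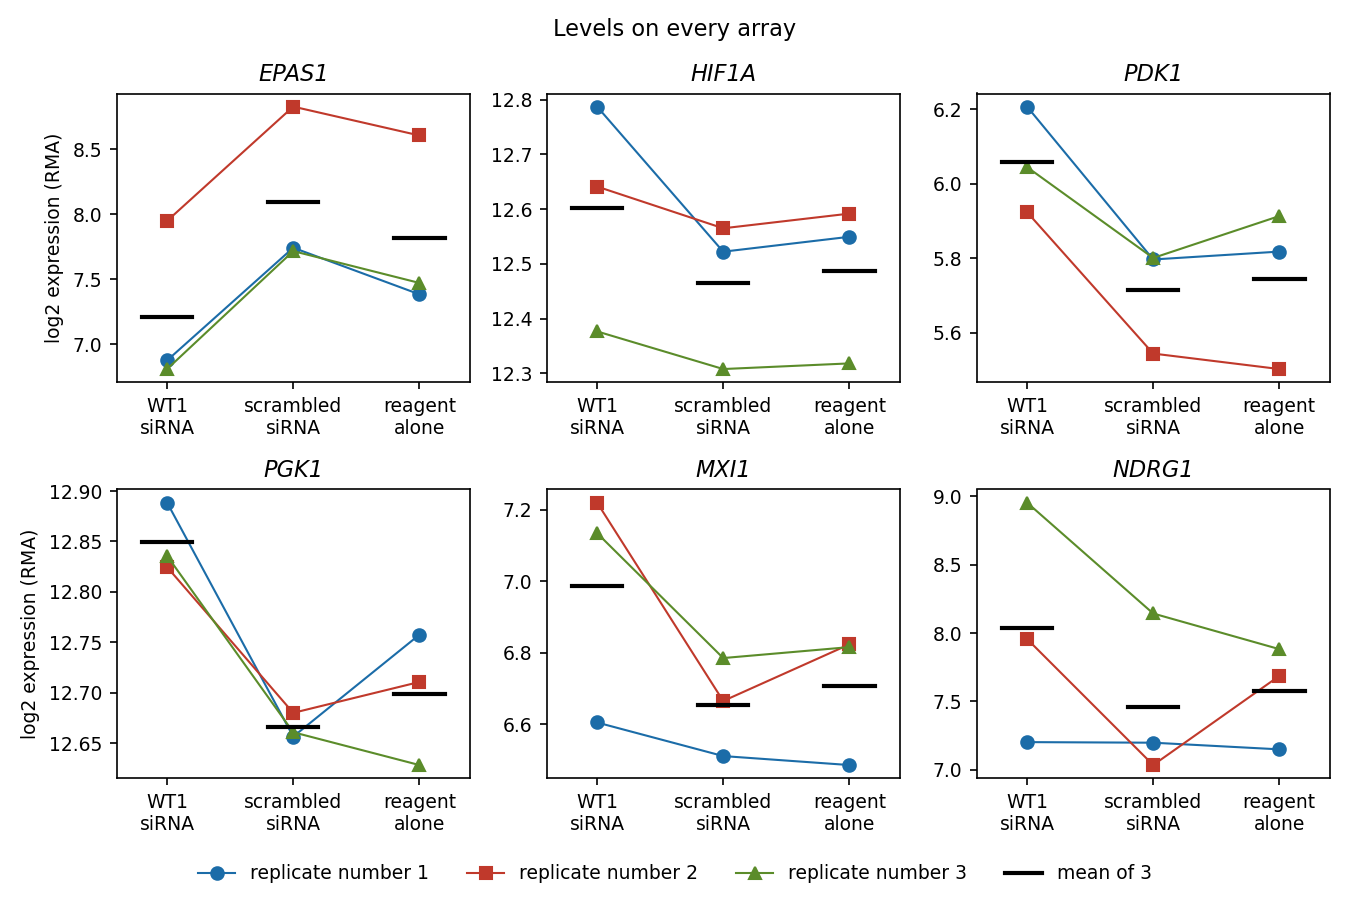
Log2 expression (RMA) of 6 genes on every array, each panel with its own axis, in the order WT1 siRNA, scrambled siRNA and reagent alone. Points are arrays, lines join arrays of 1 replicate number, and black bars are the mean of 3. EPAS1 was lowest with the WT1 siRNA within each number, PDK1 and PGK1 were higher on all 3 WT1 siRNA arrays than on any control array, and NDRG1 differed little in number 1.

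HIF1A, whose protein is the alpha subunit present in most cell types, varied little between groups. It lay at 12.79, 12.64 and 12.38 with the WT1 siRNA, against 12.52, 12.56 and 12.31 with the scrambled siRNA and 12.55, 12.59 and 12.32 with reagent. Each number was higher with the WT1 siRNA than with either control, by 0.14 on average against the scrambled siRNA (95% interval -0.01 to 0.28, limma adjusted p = 0.328) and by 0.12 against reagent (-0.03 to 0.26, adjusted p = 0.436). Both intervals include 0.

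Beside EPAS1, PDK1 was the one member to pass against the scrambled siRNA, and it rose. PDK1 encodes a kinase that switches off pyruvate dehydrogenase, which sends pyruvate into the mitochondrial cycle, and is a classical HIF target. Its levels were 6.21, 5.92 and 6.04 with the WT1 siRNA, against 5.80, 5.54 and 5.80 with the scrambled siRNA and 5.82, 5.50 and 5.91 with reagent. No WT1 siRNA array overlapped either control. PDK1 was higher by 0.41, 0.38 and 0.24 in the 3 numbers against the scrambled siRNA (mean 0.34, SE 0.069, limma adjusted p = 0.0305), or 127% of that level.

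Against reagent PDK1 was higher by 0.39, 0.42 and 0.13, and the mean of 0.31 did not pass (limma adjusted p = 0.0676). The scrambled siRNA differed from reagent by -0.03 (95% interval -0.19 to 0.12). PDK1 was dim, with 34.7% to 45.6% of the other signals on an array below it, and had 1 probe set. Its call against the scrambled siRNA held in 8 of 19 alternative fits. The call was lost without WT1 siRNA culture 1 or 2, any 1 scrambled culture, reagent culture 2, or all cultures numbered 1 or 2 (adjusted p 0.0545 to 0.315). It was also lost without the block (SE 0.131), with a random block, and with only the groups compared in the fit.

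Thus 2 of 33 members passed against the scrambled siRNA (6.06%), 1 higher and 1 lower, where 3.7% of all genes passed, 1.39% higher and 2.32% lower. Against reagent 1 of 33 passed (3.03%), where 1.4% of all genes did, 0.376% higher and 1.02% lower. Between the scrambled siRNA and reagent 0 of 33 passed in limma, where 1.21% of all genes did, 0.644% higher and 0.568% lower. Without the block 0 members passed in any of the 3 comparisons, where 0.0334%, 0% and 0.00836% of all genes passed. An unadjusted p under 0.05 was reached with the block by 10, 12 and 8 members in these comparisons, where 17.7%, 15.9% and 13.1% of all genes reached it. Without the block it was reached by 2, 3 and 3 members, where 4.12%, 3.11% and 2.44% of all genes reached it.

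The members as a group lay slightly above 0. Against the scrambled siRNA 23 of 33 had a fitted difference above 0, with a median of 0.03, while 49.4% of all genes were above 0, with a median of -0.0015. Against reagent 28 of 33 were above 0, with a median of 0.12, while 53.9% of all genes were, with a median of 0.01. The comparisons share the WT1 siRNA arrays. Counted within replicate numbers, 14 of 33 members were higher in 3 of 3 numbers against the scrambled siRNA (42.4%, against 16.4% of all genes), and 3 were lower in all numbers, ADM, ANGPTL4 and EPAS1 (9.09%, against 20.1%). Against reagent 14 were higher in 3 of 3 numbers (against 17% of all genes), and EPAS1 alone was lower in all of them.

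**Figure D2:**
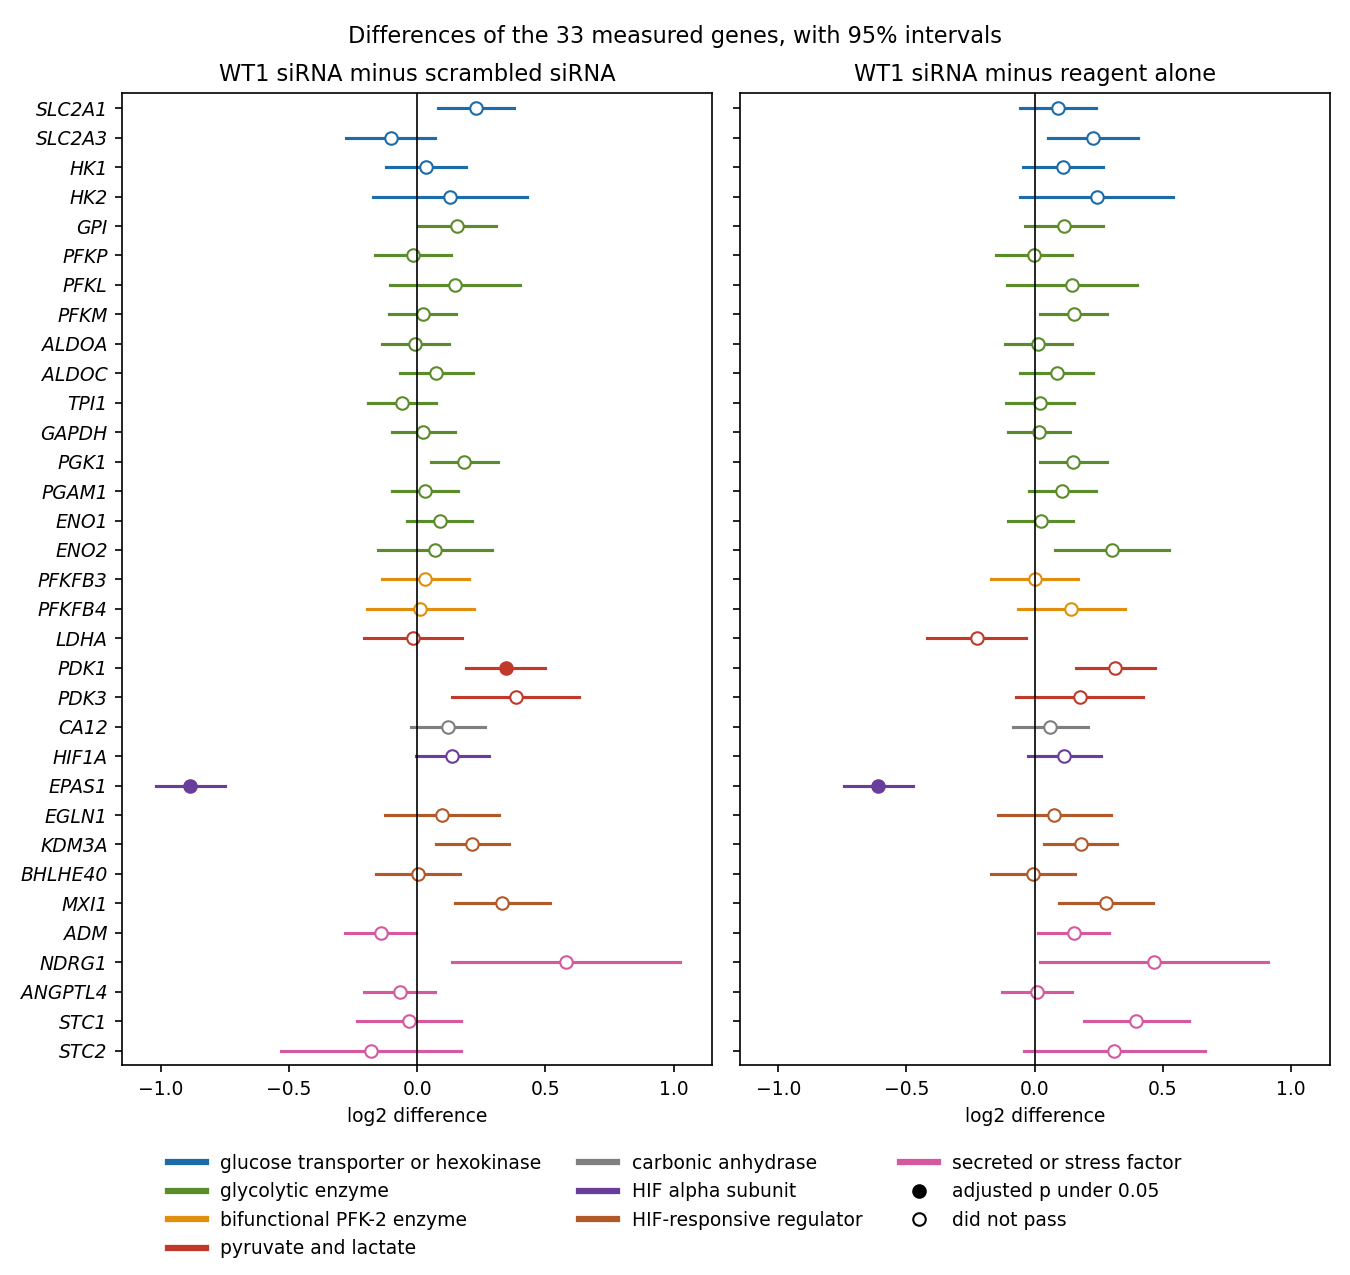
Log2 differences of the 33 measured genes with 95% intervals from limma with the replicate block, WT1 siRNA minus scrambled siRNA at left and minus reagent alone at right, coloured by role. Filled points passed at an adjusted p under 0.05. EPAS1 passed in both panels and PDK1 at left, and most other intervals reach 0 or lie close to it.

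Glucose enters through the transporters SLC2A1 and SLC2A3 and is trapped in the cell by the hexokinases HK1 and HK2. None of these 4 passed in a WT1 siRNA comparison. SLC2A1 lay at 8.99, 8.61 and 8.69 with the WT1 siRNA, against 8.73, 8.26 and 8.60 with the scrambled siRNA and 8.92, 8.46 and 8.64 with reagent. It was higher within each number, by 0.23 on average against the scrambled siRNA (limma adjusted p = 0.102) and 0.09 against reagent, and the groups overlapped. A second, dimmer SLC2A1 probe set differed by -0.07 against the scrambled siRNA and by 0.002 against reagent and did not pass. HK1 differed by 0.03 and 0.11 and HK2 by 0.13 and 0.24, with the HK2 intervals running up to 0.43 and 0.54.

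SLC2A3, a transporter with a high affinity for glucose, stood apart from reagent in both siRNA groups at its brightest probe set. It lay at 7.70, 7.76 and 8.03 with the WT1 siRNA and at 7.94, 7.96 and 7.89 with the scrambled siRNA, against 7.55, 7.58 and 7.67 with reagent. All arrays of both siRNA groups lay above all reagent arrays there. The scrambled siRNA exceeded reagent by 0.33, which did not pass at this probe set (limma adjusted p = 0.0894). For the same comparison 2 dimmer SLC2A3 probe sets passed (0.47, adjusted p = 0.0138, and 0.56, adjusted p = 0.0474). Both dimmer probe sets overlapped reagent in both siRNA groups. At the brighter of them number 3 lay at 6.67 with the WT1 siRNA and 6.72 with reagent. With the WT1 siRNA the difference from reagent at the brightest probe set was 0.23 (adjusted p = 0.204). Other probe sets shared by SLC2A3 and SLC2A14 were not used.

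The 12 enzymes from GPI to the enolases carry glucose phosphate to phosphoenolpyruvate, and 0 of them passed in any group comparison. Against the scrambled siRNA 9 of 12 lay above 0, with a median of 0.05 and a range of -0.06 to 0.18, and the 95% intervals reached from -0.19 (TPI1) to 0.40 (PFKL). Against reagent 11 of 12 lay above 0, with a median of 0.10, and the intervals reached from -0.15 (PFKP) to 0.52 (ENO2). The SE of these 12 genes lay between 0.0543 and 0.113. GAPDH, the dehydrogenase often used as a loading control, differed by 0.02 in both comparisons (intervals -0.10 to 0.15 and -0.11 to 0.14).

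By step, GPI, the isomerase after hexokinase, was higher by 0.15 against the scrambled siRNA and 0.12 against reagent, within each number in both (limma adjusted p = 0.296 and 0.467). Among the phosphofructokinases, which commit sugar to the pathway, PFKL differed by 0.15 and 0.14, PFKM by 0.02 and 0.15 and PFKP by -0.02 and -0.00. The aldolases, which split the sugar, lay at -0.01 and 0.01 for ALDOA and at 0.07 and 0.09 for ALDOC, and the triose isomerase TPI1 at -0.06 and 0.02. None of these passed in either comparison.

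After the triose stage the mutase PGAM1 differed by 0.03 against the scrambled siRNA and by 0.11 against reagent. The widespread enolase ENO1 was at 0.09 and 0.02, and ENO2 was at 0.07 and 0.30, with the difference from reagent at 0.39 and 0.52 in numbers 2 and 3 and at -0.01 in number 1 (adjusted p = 0.188). Of the 12 enzymes, each at its brightest probe set, PGK1 alone had no overlap with either control.

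PGK1, which makes the first ATP of the pathway, had the greatest difference of these enzymes against the scrambled siRNA, and it did not pass. It lay at 12.89, 12.82 and 12.84 with the WT1 siRNA, against 12.66, 12.68 and 12.66 with the scrambled siRNA and 12.76, 12.71 and 12.63 with reagent. All WT1 siRNA arrays lay above all control arrays. The differences were 0.18 (SE 0.058, limma adjusted p = 0.137) and 0.15 (adjusted p = 0.258). The other 3 PGK1 probe sets were higher on average by 0.10 to 0.24 and by 0.19 to 0.25 without passing. They overlapped both controls, so the separation was seen at the brightest probe set alone. Per-array values of PGK1, HIF1A, SLC2A1, SLC2A3 and NDRG1 were chosen for printing after they had been seen.

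Members whose groups did not overlap numbered 3 higher with the WT1 siRNA than with the scrambled siRNA (PDK1, PDK3 and PGK1; 9.09%, against 3.16% of all genes) and 0 lower (against 3.8%). Against reagent they were 4 higher (PDK1, PGK1, SLC2A3 and STC1; 12.1%, against 2.68%) and 0 lower (against 3.19%). EPAS1 was not among them because of its spread over numbers.

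Of the other genes at pyruvate and its side branches none passed. PDK3, a second kinase of pyruvate dehydrogenase, was higher against the scrambled siRNA by 0.31, 0.20 and 0.65 (mean 0.38, limma adjusted p = 0.105). In that comparison 2 dimmer PDK3 probe sets were at 0.09 and 0.02. Against reagent PDK3 differed by -0.04, -0.01 and 0.58 (mean 0.18, limma adjusted p = 0.503). The scrambled siRNA differed from reagent by a mean of -0.21 (adjusted p = 0.518). LDHA, which turns pyruvate into lactate, differed by -0.02 against the scrambled siRNA (interval -0.21 to 0.18) and by -0.23 against reagent (interval -0.42 to -0.03, adjusted p = 0.252). PFKFB3 and PFKFB4, bifunctional enzymes that set the level of the main activator of phosphofructokinase, differed by 0.03 and 0.01 against the scrambled siRNA and by -0.00 and 0.14 against reagent. CA12, a membrane carbonic anhydrase of pH control, differed by 0.12 and 0.06.

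Among regulators that respond to HIF, MXI1 came closest to passing. MXI1 is an antagonist of MYC. Its levels were 6.61, 7.22 and 7.13 with the WT1 siRNA, against 6.51, 6.67 and 6.79 with the scrambled siRNA and 6.49, 6.82 and 6.82 with reagent. It was higher within each number in both comparisons, although the culture numbered 1 with the WT1 siRNA lay below most control arrays. The differences were 0.33 (SE 0.082, limma adjusted p = 0.0651) and 0.28 (adjusted p = 0.146).

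KDM3A, a histone demethylase, was also higher within each number, by 0.22 on average against the scrambled siRNA (interval 0.07 to 0.36, limma adjusted p = 0.112) and 0.18 against reagent (interval 0.04 to 0.32, adjusted p = 0.217). EGLN1 differed by 0.10 and 0.08, and BHLHE40, a transcriptional repressor, by 0.00 and -0.01 with intervals within -0.17 and 0.17. These regulators thus ranged over 0.00 to 0.33 against the scrambled siRNA with 0 of 4 passing.

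The secreted and stress factors split by comparison. STC1, a secreted glycoprotein, had levels of 10.11, 10.16 and 10.18 with the WT1 siRNA and 10.24, 10.29 and 10.02 with the scrambled siRNA, against 9.75, 9.63 and 9.88 with reagent. At this brightest probe set both siRNA groups lay above reagent on every array and did not separate from each other. The WT1 siRNA exceeded reagent by 0.40 (SE 0.091, limma adjusted p = 0.0756), the scrambled siRNA exceeded reagent by 0.43 (adjusted p = 0.0639), and the siRNAs differed by -0.03 (interval -0.24 to 0.17). A second STC1 probe set passed for the scrambled siRNA over reagent (0.55, adjusted p = 0.0219) and another was at 0.49 (adjusted p = 0.0503). At both of these dimmer probe sets the siRNA groups overlapped reagent.

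ADM, a peptide that widens blood vessels, was highest with the scrambled siRNA. It lay at 10.19, 10.41 and 10.28 with the WT1 siRNA, at 10.26, 10.62 and 10.43 with the scrambled siRNA and at 10.06, 10.20 and 10.17 with reagent. The scrambled arrays lay above all reagent arrays, by 0.20, 0.42 and 0.27 within numbers (mean 0.29, limma adjusted p = 0.0633). With the WT1 siRNA ADM differed by -0.14 from the scrambled siRNA and by 0.15 from reagent (adjusted p = 0.292 and 0.288). STC2, a paralogue of STC1, differed by -0.18 and 0.31, and ANGPTL4, an inhibitor of lipoprotein lipase, by -0.07 and 0.01 at a dim probe set.

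NDRG1, a stress-responsive gene used as a marker of hypoxia, had the greatest difference upward and the widest interval. It lay at 7.20, 7.96 and 8.95 with the WT1 siRNA, against 7.20, 7.03 and 8.14 with the scrambled siRNA and 7.15, 7.69 and 7.88 with reagent. Against the scrambled siRNA the differences within numbers were 0.00, 0.92 and 0.81, and against reagent 0.05, 0.27 and 1.07. The means of 0.58 (SE 0.197) and 0.47 did not pass (limma adjusted p = 0.172 and 0.303), and cultures numbered 1 showed next to no difference.

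Between the scrambled siRNA and reagent 4 members were higher without overlap (ADM, ANGPTL4, SLC2A3 and STC1; 12.1%, against 2.97% of all genes) and 0 lower (against 2.72%). Within numbers 12 of 33 were higher in all (against 21.7% of all genes) and 5 lower in all (against 17.4%), with a median over members of -0.003.

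Replicate numbers moved the members more than the groups did. Of the sum of squares over the 33 genes, 74.3% lay between numbers and 17.1% between groups, against 71.4% and 15.6% over all probe sets. The limma F test for any difference between numbers passed for 23 of 33 members (69.7%), against 52.1% of all genes, and for 15 without scrambled culture 1. Differences of at least 1 log2 with a pass were found in ENO2, EPAS1 and NDRG1 (9.09% of members, against 1.81% of all genes).

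ENO2, the enolase of neurons that is also induced in tumours, had means of 6.66, 7.45 and 8.67 in numbers 1, 2 and 3 (limma adjusted p = 6.74e-06). Its arrays lay at 6.64, 7.57 and 8.94 with the WT1 siRNA, at 6.69, 7.60 and 8.66 with the scrambled siRNA and at 6.65, 7.18 and 8.42 with reagent. The numbers did not overlap, and within numbers the groups lay up to 0.52 apart. EPAS1 instead was high in number 2 alone, with means of 7.34, 8.46 and 7.33 (adjusted p = 5.78e-06). The numbers therefore did not order these genes alike.

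KDM3A had means of 7.53, 8.12 and 8.41 in the numbers (limma adjusted p = 2.8e-05), from arrays at 7.71, 8.21 and 8.54 with the WT1 siRNA, 7.37, 8.10 and 8.34 with the scrambled siRNA and 7.51, 8.05 and 8.36 with reagent. PFKP, the platelet form of phosphofructokinase, had means of 9.85, 10.20 and 10.55 (adjusted p = 0.000112), from arrays at 9.76, 10.23 and 10.59 with the WT1 siRNA, 9.94, 10.16 and 10.54 with the scrambled siRNA and 9.85, 10.20 and 10.53 with reagent. In both genes number 1 was the lowest in every group. NDRG1, STC2, EGLN1, MXI1 and HK2 were likewise lowest in number 1 by their means, whereas SLC2A1, PDK3 and ALDOC were highest there. Over the members, 13 had both other numbers above number 1 (39.4%, against 34.7% of all genes) and 11 had both below it (33.3%, against 41.2%).

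Signs of RNA quality moved with the numbers too. The signal difference between the 3' and 5' control probe sets of ACTB was 0.0507 to 0.0887 in number 1, 0.554 to 0.677 in number 2 and 0.260 to 0.505 in number 3. For GAPDH it was -0.0249 to -0.00564, 0.157 to 0.184 and 0.0953 to 0.106. Their part in the differences between numbers was not tested. Between groups the ranges overlapped, at 0.0773 to 0.554 with the WT1 siRNA, 0.0507 to 0.677 with the scrambled siRNA and 0.0887 to 0.617 with reagent for ACTB.

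**Figure D3:**
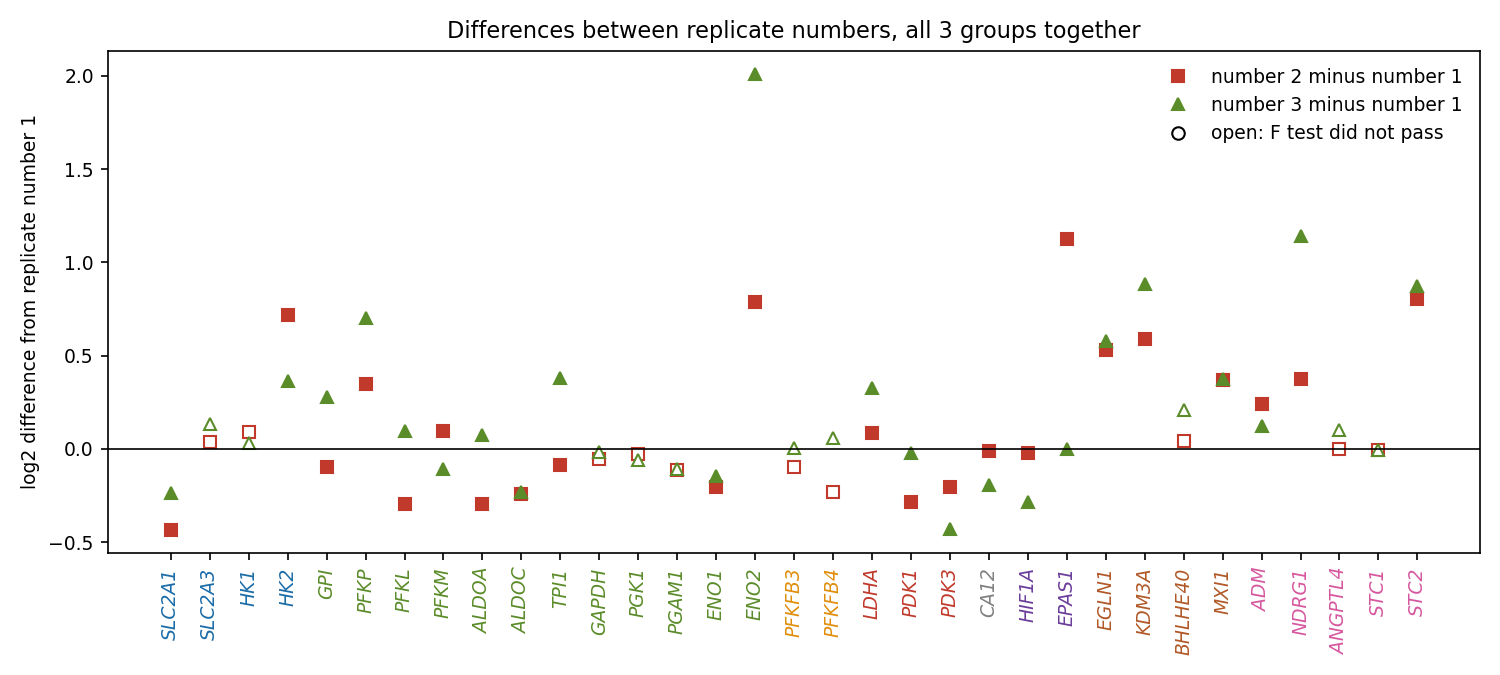
Log2 difference of each member from replicate number 1, averaged over the 3 groups, squares for number 2 and triangles for number 3, with gene names coloured by role as in the plot of differences by role. Open symbols mark genes whose limma F test between numbers did not pass. ENO2 spans 2.01 and EPAS1 1.13 between numbers, while GAPDH, PGK1 and STC1 stay near 0 at the brightest probe sets, which are shown. The dimmer probe sets of PGK1 spanned 0.23 to 0.65 and those of STC1 0.55 to 0.69, and all of these passed the F test.

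Genes of the same response outside the members that passed with the WT1 siRNA were all higher. Of 37 measured other HIF targets, 8 rose and 0 fell against the scrambled siRNA (21.6% higher, against 1.39% of all genes): LOX, MAFF, BNIP3L, DDIT4 and, named after their values were seen, AK4, BNIP3, GBE1 and PLOD2. The median was 0.13, and 29 of 37 lay above 0. This list, like the members and the other gene lists, was chosen with earlier results of these data known. Its shares therefore describe the list and are not an independent test. Against reagent 2 rose, MAFF and BNIP3L, and 0 fell (5.41% higher, against 0.376% of all genes), with a median of 0.14 and 33 of 37 above 0. Between the scrambled siRNA and reagent 1 was higher, TMEM45A (0.55, limma adjusted p = 0.0407), and 2 were lower, LOX and the glycogen phosphorylase PYGL (-0.49, adjusted p = 0.0294), or 2.70% higher and 5.41% lower, against 0.644% and 0.568% of all genes. TMEM45A and PYGL were named after their values were seen. Without the block 0 passed in any of these comparisons, and without the arrays numbered 2 the counts with the WT1 siRNA were 0 and 0. Against the scrambled siRNA the count was 1 without WT1 siRNA culture 2 or scrambled culture 2, 3 without scrambled culture 1 or 3, 5 without reagent culture 2 and 4 without the arrays numbered 3. Against reagent it was 0 without WT1 siRNA culture 2 or reagent culture 2, 1 without scrambled culture 2 or 3, reagent culture 3 or the arrays numbered 3, and 3 to 5 without WT1 siRNA culture 1 or 3 or the arrays numbered 1.

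LOX, a lysyl oxidase that crosslinks collagen, differed between the controls as well. It lay at 9.24, 9.65 and 8.98 with the WT1 siRNA, at 8.53, 8.25 and 8.29 with the scrambled siRNA and at 9.17, 9.25 and 8.80 with reagent. The scrambled arrays stood below all others, so LOX was higher by 0.93 against the scrambled siRNA (SE 0.122, limma adjusted p = 0.00602) but by 0.22 against reagent (adjusted p = 0.447), and the scrambled siRNA was lower than reagent by a difference of -0.72 (adjusted p = 0.0284). DDIT4, an inhibitor of growth signalling, had the same order, at 0.54 (adjusted p = 0.0208), 0.12 (adjusted p = 0.591) and -0.41 (adjusted p = 0.0855).

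MAFF, a small basic leucine zipper factor, was higher than both controls. It lay at 6.91, 8.05 and 7.71 with the WT1 siRNA, against 6.41, 7.32 and 7.29 with the scrambled siRNA and 6.03, 7.39 and 7.24 with reagent. Within each number the WT1 siRNA was highest, by 0.55 (SE 0.092, limma adjusted p = 0.0159) and 0.67 (adjusted p = 0.0121) on average. BNIP3L, a receptor for the removal of mitochondria, lay at 9.04, 9.20 and 9.82 with the WT1 siRNA, against 8.68, 8.73 and 9.46 with the scrambled siRNA and 8.62, 8.89 and 9.45 with reagent, and rose against both by 0.40 and 0.37 (adjusted p = 0.0117 and 0.0279). The calls of LOX and MAFF against the scrambled siRNA held in 17 and 13 of 19 alternative fits, and those of MAFF and BNIP3L against reagent in 13 and 5. The other calls against the scrambled siRNA held in 13 (BNIP3L), 12 (DDIT4), 10 (GBE1), 8 (BNIP3), 8 (PLOD2) and 6 (AK4) of 19.

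**Figure D4:**
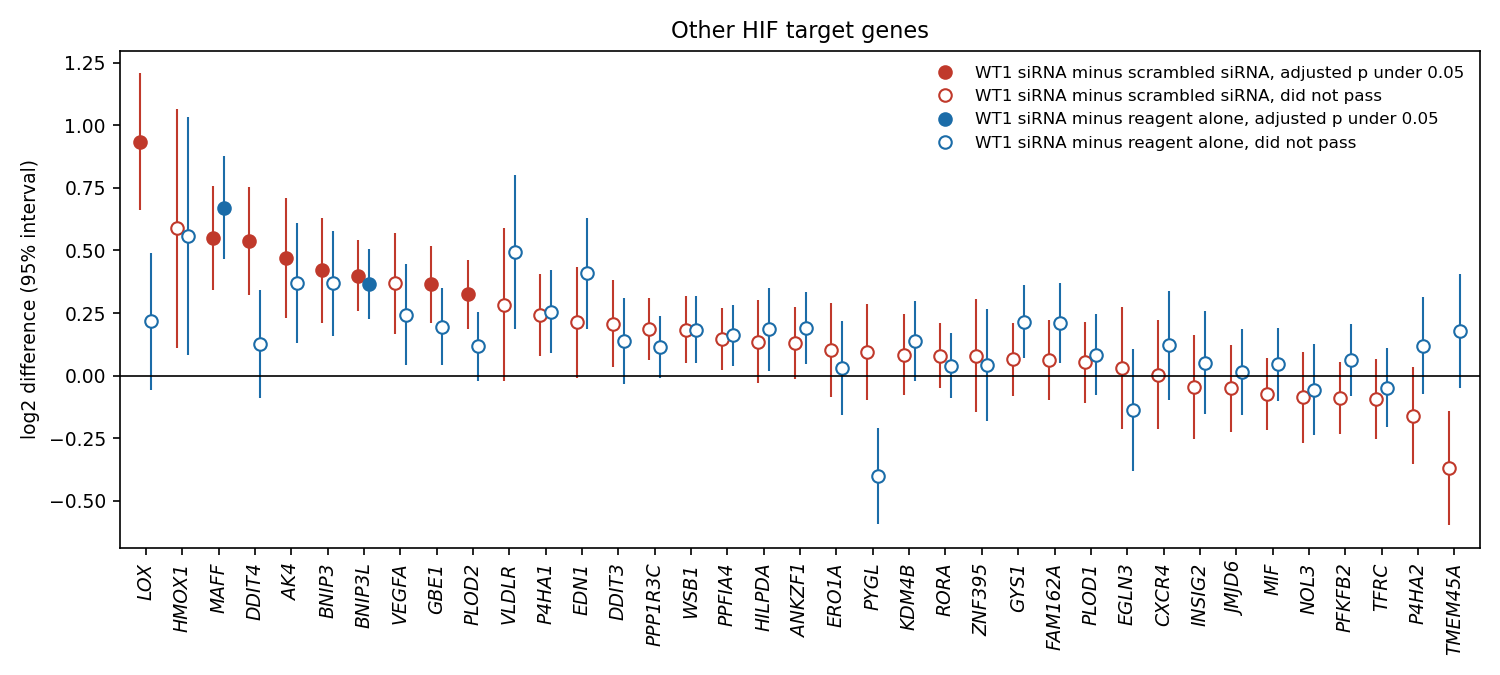
Log2 differences with 95% intervals from limma for 37 other HIF target genes, WT1 siRNA minus scrambled siRNA in red and minus reagent alone in blue, ordered by the red value. Filled points passed at an adjusted p under 0.05. Against the scrambled siRNA 8 passed and all were above 0, and against reagent MAFF and BNIP3L passed.

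Other branches of glucose use changed in few genes. Of 23 other glycolysis and lactate genes 1 fell against the scrambled siRNA (4.35%, against 2.32% of all genes) and 0 passed against reagent, so the share was near that of all genes. The gene was TIGAR, a phosphatase that lowers the activator of phosphofructokinase, at 6.89, 7.49 and 7.12 with the WT1 siRNA, against 7.47, 7.78 and 7.46 with the scrambled siRNA and 7.24, 7.57 and 7.55 with reagent. It was lower within each number, by a mean of -0.41 (limma adjusted p = 0.0344) and -0.29 (adjusted p = 0.146). The call held in 6 of 19 alternative fits. MPC2, PKLR and PGK2 were next by p and did not pass.

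Of 9 genes of the pyruvate dehydrogenase complex and its regulators, the complex that PDK1 inhibits, 0 passed in either WT1 siRNA comparison. PDP1, the phosphatase that opposes PDK1, was at -0.04 against the scrambled siRNA and 0.35 against reagent (limma adjusted p = 0.881 and 0.0814), and the subunit DLAT at -0.23 and -0.19 (adjusted p = 0.0708 and 0.152). PDHX and DLD were next by p. Of 9 pentose phosphate genes 0 passed, with PRPS2, RPIA, PGD and PGLS nearest by p.

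Of 18 regulators of HIF 1 rose against both controls (5.56%, against 1.39% of all genes for the scrambled siRNA and 0.376% for reagent) and 0 fell. This was CITED2, a HIF target that competes with HIF alpha for the coactivators EP300 and CREBBP. It lay at 8.66, 9.33 and 8.74 with the WT1 siRNA, against 8.46, 8.67 and 8.23 with the scrambled siRNA and 8.43, 8.78 and 8.21 with reagent. It was higher by 0.46 (SE 0.085, limma adjusted p = 0.023) and 0.43 (adjusted p = 0.0452), and the calls held in 9 and 6 of 19 alternative fits, with adjusted p = 0.315 and 0.373 without the arrays numbered 2. HIF3A, CREBBP and ELOC were next by p and did not pass.

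Markers were read once for the identity of the cells. VIM, CD44 and NES were bright, whereas S100B was dim and GFAP ranged from 5.36 to 9.25 between arrays. Averaged over 7 astrocytic markers, the level per array was 8.80 to 9.42 with the WT1 siRNA, 8.81 to 9.38 with the scrambled siRNA and 8.99 to 9.57 with reagent. Within that list SOX2 rose by 0.75 (limma adjusted p = 0.00282) and SLC1A3 fell by 0.70 (adjusted p = 0.000859) against the scrambled siRNA. Against reagent they differed by 0.36 and -0.22 and did not pass (adjusted p = 0.0686 and 0.108), and on average the scrambled siRNA arrays exceeded the reagent arrays in SLC1A3 by 0.49 (adjusted p = 0.00641). Their part in the member differences was not tested. Of the markers of other cell types, PTPRC (immune), CDH5 (endothelium), EPCAM and CDH1 (epithelium) and MOG (oligodendrocyte) exceeded at most 18.5% of the probe sets on any array, CD14 at most 21.0% and MBP at most 31.7%. PECAM1 and VWF (endothelium) exceeded 34.4% to 42.5%, CD3E (immune) 45.8% to 51.0%, SNAP25 (neuron) 48.6% to 53.3%, and SYT1 (neuron) and KRT8 (epithelium) 59.3% to 74.9%. None of these markers passed in any group comparison. In bulk RNA, a smaller share of cells with a transcript and less of it per cell cannot be told apart.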

How the data were processed

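Total RNA of 9 cultures was hybridised to 9 Affymetrix arrays, and per the submitters' processing notes the authors processed them with RMA, so that each deposited value is the log2 level of a probe set, background corrected and normalised between arrays. No source used here gives the software version or the chip definition. RMA shares information over arrays and compresses low signals, so differences at dim probe sets can be understated. The deposited table held 22277 probe sets, 0 missing values and 0 pairs of identical arrays. The 62 control probe sets were left out, which left 22215. Gene symbols came from the probe annotation, where 19064 probe sets had 1 symbol, 1043 several and 2108 none.

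Groups and replicate numbers came from the titles. All 9 arrays entered 1 linear model in limma 3.58.1 under R 4.3.3 (lmFit, contrasts.fit and moderation by eBayes), with group and replicate number as terms, since the groups were to be compared within numbers. Tests were two-sided and adjusted after Benjamini and Hochberg over all 22215 probe sets, an adjusted p under 0.05 counted as passing, and intervals are at 95%. Deviations from group means correlated at 0.647 to 0.849 in the 9 array pairs that share a number, so the numbers pair the samples. The 18 pairs that do not share one lay at -0.611 to -0.0311, which in part follows because deviations cancel within a group. The fit was tested on simulated data, built from the fitted differences between replicate numbers plus independent normal noise. The block thus matched these data by design, so its gain over no block is not a test of the block. With the block it recovered 67% of changes of 0.5 log2 against the scrambled siRNA and 70% against reagent, so changes of that size can be missed. Of changes of 1 log2 it recovered 98% in both, with 12 false calls in each comparison. Without the block 13% and 16% of the changes of 0.5 log2 were recovered. Values on every array are given for members that passed, for the 3 with the smallest p in each comparison and the 4 with the smallest p between numbers, and up to 4 genes are named from each other list. The members and all gene lists were chosen with earlier results of these data known. Alternatives were no block, a random block, median centring, a filter on the dimmest 25%, averaged probe sets, another variance prior, only the groups compared, and leaving out each array or number. For arrays, their number limits the precision. Figures were drawn with matplotlib 3.10.9.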

Additional observations from a re-analysis of the deposited data

How the results depend on the processing

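With the replicate block as reported, 2 of the 33 genes passed against the scrambled siRNA, 1 against reagent and 0 between the scrambled siRNA and reagent. Without the block 0, 0 and 0 passed. With the number as a random block 1, 0 and 0 passed, and with only the groups compared in the fit 1, 0 and 2 passed. With averaged probe sets 2 passed against both the scrambled siRNA and reagent and 3 between the controls, and with a trended, robust variance prior 3, 3 and 2 passed. Counting a gene at any of its probe sets, an alternative chosen after seeing the data, gave 2 between the controls. Leaving out 1 array or 1 number at a time, the counts ran from 0 to 3, from 0 to 4 and from 0 to 1. The medians over the genes ran from 0.0258 to 0.0739, from 0.0715 to 0.144 and from -0.00316 to 0.0447. The 23 genes that differed between replicate numbers became 15 with no term for the group and 15 to 22 when 1 array was left out. Between the scrambled siRNA and reagent PDK1 ran from -0.0756 to 0.0354 when 1 array or number was left out, above 0 without reagent replicate 3 (0.0354) or number 3 (0.0102). EPAS1 was lower in all 19 alternatives in both comparisons with the WT1 siRNA, and passed in 17 of them against the scrambled siRNA and in 14 against reagent, losing the call against reagent also with a random block (adjusted p = 0.185) or only those groups in the fit (0.0602). With averaged probe sets the EPAS1 differences were -0.47 and -0.37. The sign of 19, 22 and 16 of the 33 genes was the same in all 19 alternatives in these comparisons. The cause of the changes was not tested, apart from the fewer arrays in fits that leave some out. Signal over background could not be judged from detection calls, and dim probe sets such as those of PDK1 and ANGPTL4 limit what can be seen there.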
